A study of Bos grunniens with 18 samples.

Results

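Of 10 antioxidant enzyme genes of the yak ovary looked up by symbol, 1 was among the 173 genes of the expression table analysed here, and that gene was SOD1, which encodes the cytosolic copper-zinc superoxide dismutase. The other 9 were SOD2, SOD3, CAT, GPX1, GPX3, GPX4, PRDX1, PRDX3 and TXNRD1, and their expression was not analysed here. The table analysed is the first stretch of a longer file and so is not a sample of the whole transcriptome. The values below therefore describe SOD1 and not the antioxidant enzymes as a group.

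Ovaries came from healthy yaks (Bos grunniens) of 6 years, slaughtered at the same farm. The stages were anestrus (YO-A, April), estrus (YO-F, August) and pregnancy (YO-P, December). Each stage had 3 input RNA-seq libraries and 3 libraries of RNA immunoprecipitated with an antibody against N6-methyladenosine (m6A), a methyl mark on mRNA. No treatment was given and the groups share the farm, the age and the tissue, so stage and month of collection cannot be told apart. Library YO-F2 was left out of the fits, as in the study, because it lay away from the other libraries in a principal component analysis, and each SOD1 level is given with and without it. None of 111 marker genes of 12 cell types was among the 173 genes, so the tissue label and the cell make-up of the libraries were not checked here. In whole ovary, fewer cells of a type and less RNA per cell cannot be told apart.

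Superoxide arises when electrons leak from the respiratory chain or from steroid-producing cytochrome P450 enzymes. Superoxide dismutases turn it into hydrogen peroxide, SOD1 in the cytosol, SOD2 in mitochondria and SOD3 outside the cell. Catalase, glutathione peroxidases and peroxiredoxins then remove the peroxide, and thioredoxin reductase returns electrons to the peroxiredoxin cycle. In the ovary these enzymes are known from follicles and from the steroid-producing corpus luteum.

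SOD1 (ENSBGRG00000000117) lies on the plus strand at chr1:35088954-35098559 in the coordinates of the deposited table, a span of 9606 bp. Its level in FPKM, fragments scaled to exon length and to the mapped reads of the library, was 79.3, 73.4 and 77.4 in YO-A1, YO-A2 and YO-A3. In YO-F1 and YO-F3 it was 101.8 and 99.97, and YO-F2 had 134.6, the highest SOD1 value of the 9 libraries. In YO-P1, YO-P2 and YO-P3 it was 88.7, 105.8 and 91.2. Every estrus and pregnancy library lay above every anestrus library, whereas the estrus and pregnancy libraries overlapped.

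**Figure D1:**
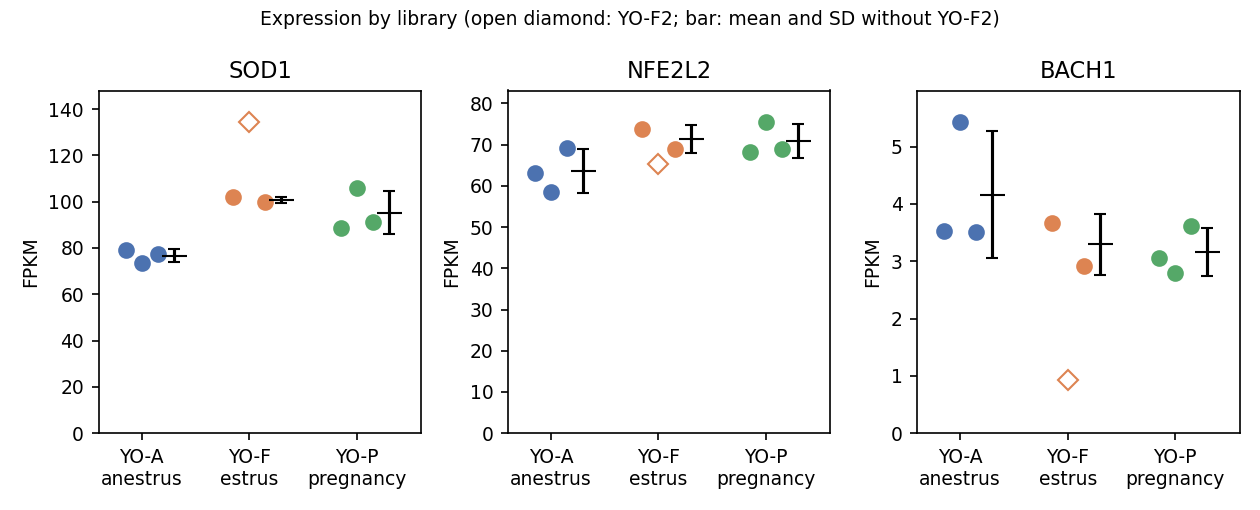
FPKM of SOD1, NFE2L2 and BACH1 in each input library by stage, with the mean and SD of the libraries without YO-F2 beside the points. The 3 anestrus libraries have the lowest SOD1 values, 73.4 to 79.3, and the open diamond of YO-F2 lies above the other libraries for SOD1 and below them for BACH1.

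By stage mean, SOD1 was lowest in anestrus at 76.7 ± 2.98 FPKM (SD, n = 3), higher in pregnancy at 95.3 ± 9.25 (SD, n = 3) and highest in estrus at 100.9 ± 1.30 (SD, n = 2). With YO-F2 the estrus mean was 112.1 ± 19.5 FPKM (SD, n = 3). Pregnancy and estrus, neighbours in this order, did not differ beyond their spread. The coefficient of variation between libraries was 3.88% in anestrus, 9.71% in pregnancy and 1.29% in estrus, or 17.4% in estrus with YO-F2.

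SOD1 was among the more abundant transcripts of the 130 genes tested, those with a mean of at least 0.1 FPKM. Its mean of 89.7 FPKM over 8 libraries ranked 8, against a median gene of 6.18, and its rank in single libraries ran from 5 to 11. The SD of log2(FPKM + 0.1) within stages over these 8 libraries was 0.09 for SOD1 and 0.31 for the median gene. Only 6 genes of the 130 had a lower SD than SOD1. It also ranked 7 among the 54 genes with a mean of at least 10 FPKM, whose median was 0.20. This low spread holds without YO-F2. With that library the coefficient of variation of SOD1 in estrus was 17.4%, and no rank of the SD was computed.

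Estrus was compared with anestrus first (YO-FvsA). Mean SOD1 was 31.5% higher in estrus, a ratio of 1.32, with no overlap between the libraries of the stages (exact two-sided permutation p = 0.1, the smallest that 2 against 3 libraries allow). With YO-F2 the ratio was 1.46, again with no overlap and an exact permutation p of 0.1. On the log2(FPKM + 0.1) scale the fold change from limma was 0.40 (SE 0.12, 95% interval 0.13 to 0.66), with an unadjusted p of 0.00798 and an adjusted p of 0.260.

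SOD1 therefore did not pass a Benjamini-Hochberg adjusted p of 0.05 in YO-FvsA, and neither did any other gene: limma called 0 of 130 (0%). At an unadjusted p under 0.05 there were 12 genes (9.23%), SOD1 among them with the rank 4 by p. The standard used in the study, an unadjusted p under 0.05 together with a log2 fold change of 1 or more in size, was met by 2 genes (1.54%) and not by SOD1. Higher values in every estrus library than in every anestrus library, as for SOD1, were found in 16 of the 130 genes (12.3%). Counted from the highest log2 fold change down to the lowest, SOD1 ranked 22, and the median over all genes tested was 0.07.

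Pregnancy was then compared with anestrus (YO-PvsA), a comparison that shares its 3 anestrus libraries with YO-FvsA. Mean SOD1 was 24.2% higher in pregnancy, with no overlap between the stages (exact two-sided permutation p = 0.1, the smallest that 3 against 3 libraries allow). The log2 fold change was 0.31 (SE 0.10, 95% interval 0.07 to 0.54), with an unadjusted p of 0.0160 and an adjusted p of 0.874 from limma. SOD1 had the smallest p of the 130 genes here. That rank depended on the setting: it was 1 after quantile normalization, 4 with YO-F2 included and 6 without pregnancy replicate 2.

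No gene passed the adjusted threshold in YO-PvsA with limma, 0 of 130 (0%), and 4 genes (3.08%) had an unadjusted p under 0.05. The study's standard was met by 3 genes (2.31%), SOD1 not among them. Higher values in every pregnancy library than in every anestrus library were found in 7 of the 130 genes (5.38%), SOD1 included. The unadjusted p of SOD1 was above 0.05 without anestrus replicate 2 (0.0583) and without pregnancy replicate 2 (0.0551), the pregnancy library with the highest SOD1 level.

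Estrus and pregnancy (YO-FvsP) were closer to each other for SOD1. The estrus mean was 5.91% above the pregnancy mean, YO-P2 lay above both estrus libraries and YO-P1 and YO-P3 below them (exact permutation p = 0.4). With YO-F2 the estrus mean was 17.7% higher and the exact permutation p was 0.3. The log2 fold change was 0.09 (SE 0.12, 95% interval -0.18 to 0.35, limma adjusted p = 0.867). This interval holds values on both sides of 0, so a difference of its size was not detectable with these libraries, and after quantile normalization the value was -0.014.

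In YO-FvsP limma also called 0 of 130 genes (0%) at the adjusted threshold, 12 genes (9.23%) had an unadjusted p under 0.05 and 3 (2.31%) met the study's standard. SOD1 ranked 70 by p.

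**Figure D2:**
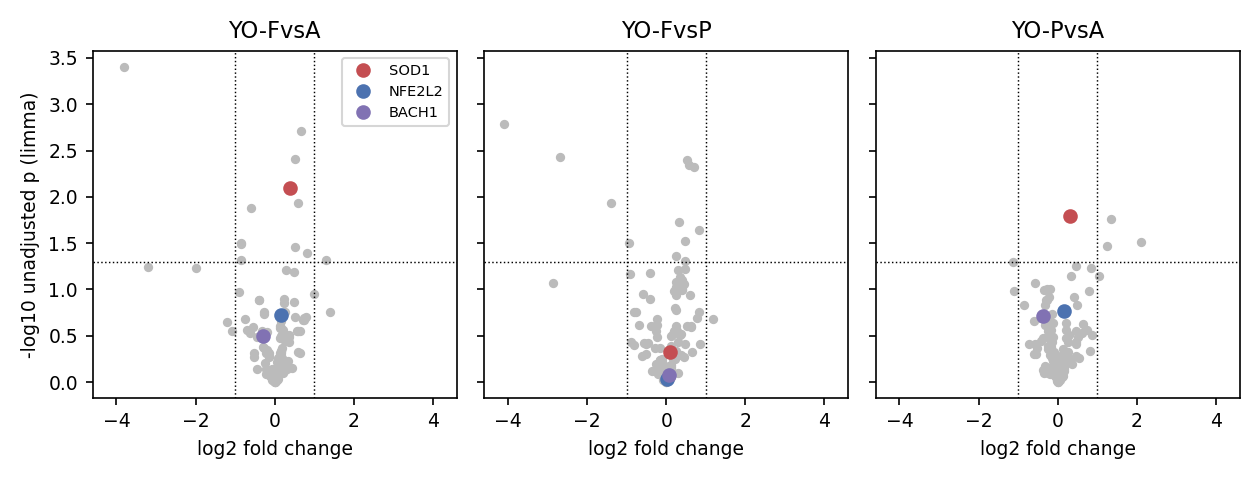
The log2 fold change (x axis) against −log10 of the unadjusted limma p (y axis) of the 130 genes tested, 1 panel for each comparison, with SOD1, NFE2L2 and BACH1 coloured and dotted lines at log2 fold changes of -1 and 1 and at an unadjusted p of 0.05. SOD1 lies above the horizontal line but inside the vertical lines in YO-FvsA (0.40) and YO-PvsA (0.31), and below the horizontal line in YO-FvsP (0.09).

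Of the 18 other settings tried for each comparison, some leave the log2 fold change unchanged by construction. Examples are other minimum levels and leaving out a library of the stage not compared. The direction of SOD1 held in all 18 for YO-FvsA, where the log2 fold change ran from 0.31 after median-ratio scaling to 0.53 with YO-F2. It also held in the 18 settings for YO-PvsA, from 0.23 without pregnancy replicate 2 to 0.36 without pregnancy replicate 1. In none of these settings did SOD1 pass the adjusted threshold, with adjusted p-values from limma between 0.170 and 0.970 in YO-FvsA and between 0.308 and 0.991 in YO-PvsA.

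**Figure D3:**
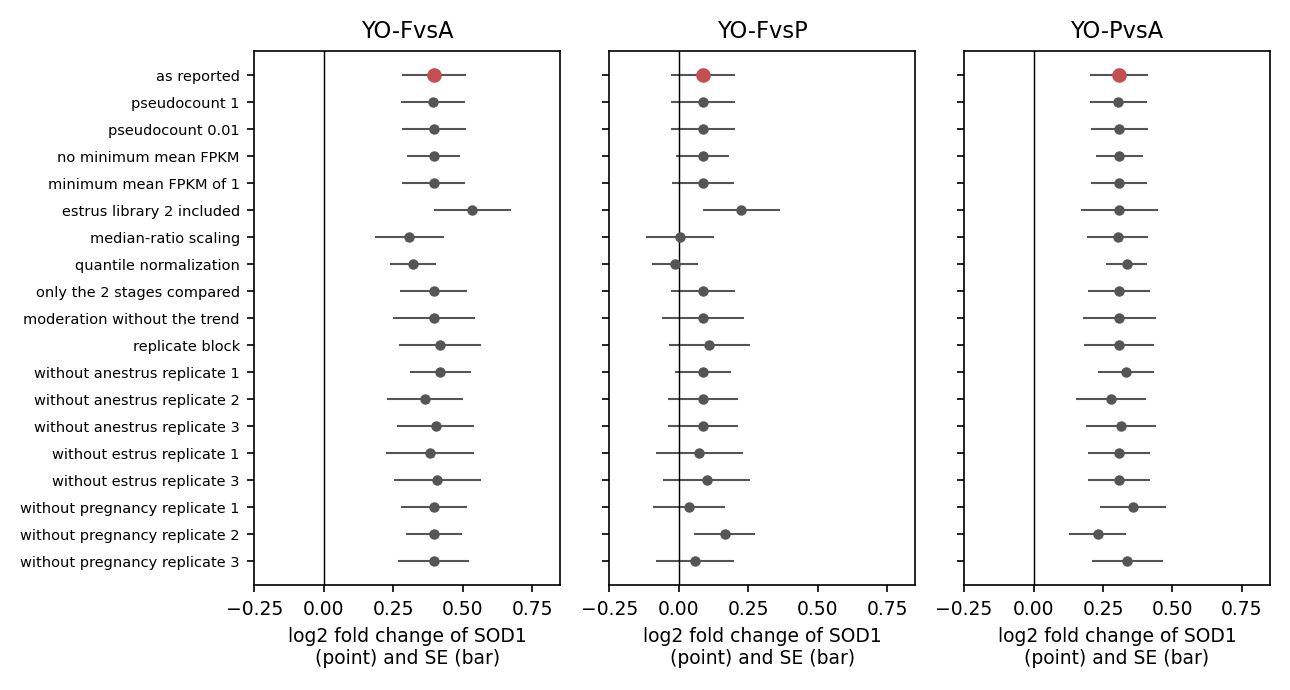
The log2 fold change of SOD1 (points, x axis) with its SE (bars) as reported (red) and in 18 other settings (grey, y axis), 1 panel for each comparison. All points of YO-FvsA and YO-PvsA lie above 0, whereas YO-FvsP has a point at -0.014 after quantile normalization.

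The pathway around these enzymes was covered thinly. Of 88 genes in 8 lists (glutathione, thioredoxin, peroxiredoxin, selenoprotein and related genes), 2 were in the table, both from the list of the KEAP1-NRF2 axis. They are described here as the only genes of these lists in the table. NFE2L2 encodes NRF2, the activator of antioxidant response elements, and BACH1 encodes a repressor that competes for the same elements. Neither passed the adjusted threshold in any comparison.

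NFE2L2 (ENSBGRG00000000213, minus strand, chr2:128624477-128664345) had 63.2, 58.4 and 69.2 FPKM in the YO-A libraries. It had 73.8 and 69.0 in YO-F1 and YO-F3, with 65.4 in YO-F2, and 68.2, 75.6 and 68.9 in the YO-P libraries. The stages overlapped in every comparison. The anestrus mean was 63.6 ± 5.40 (SD, n = 3), that of estrus 71.4 ± 3.42 (SD, n = 2) and that of pregnancy 70.9 ± 4.10 (SD, n = 3). The log2 fold changes from limma were 0.17 in YO-FvsA (SE 0.12, adjusted p = 0.743), 0.16 in YO-PvsA (SE 0.11, adjusted p = 0.910) and 0.01 in YO-FvsP (adjusted p = 0.982). Without anestrus replicate 2 they were 0.11 in YO-FvsA and 0.098 in YO-PvsA, and the YO-FvsA value was 0.082 after median-ratio scaling and 0.0078 after quantile normalization.

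BACH1 (ENSBGRG00000000080, plus strand, chr1:31783463-31799779) was far less abundant, at 3.52, 5.43 and 3.52 FPKM in the YO-A libraries. Its FPKM was 3.67 and 2.92 in YO-F1 and YO-F3, 0.921 in YO-F2, and 3.06, 2.79 and 3.62 in the YO-P libraries. The stages overlapped here too, with YO-A2 the highest library and YO-F2 the lowest. The log2 fold changes from limma were -0.30 in YO-FvsA (adjusted p = 0.743), -0.36 in YO-PvsA (adjusted p = 0.910) and 0.06 in YO-FvsP (adjusted p = 0.982). Without anestrus replicate 2, the library with the highest BACH1 level, they were -0.10 in YO-FvsA and -0.16 in YO-PvsA. The YO-FvsA value was -0.88 with YO-F2, -0.46 without estrus replicate 1 and -0.14 without estrus replicate 3.

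The genes whose log2(FPKM + 0.1) followed SOD1 most closely over the 8 libraries were NFE2L2, OMA1 and PINK1, out of 80 genes with a symbol and a mean of at least 1 FPKM. Pearson's r was 0.845, 0.750 and 0.703, beside a median of -0.011 over the 80 genes. These values are descriptions over 8 libraries that share the 3 stages, so part of each r is the difference between stages. Taken within stages, r was 0.707 for NFE2L2, 0.060 for OMA1 and 0.601 for PINK1. With YO-F2 added it was 0.440, 0.863 and 0.644. The 3 genes were picked by r over the 8 libraries and did not all lead by these other values. Within stages CNPPD1 had a higher r than all 3, at 0.860. With YO-F2 added, USP16 had 0.793, above NFE2L2 and PINK1 but below OMA1.

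OMA1 encodes a protease of the inner mitochondrial membrane, and its mean was 4.59 FPKM for anestrus, 6.60 for estrus and 6.32 for pregnancy. PINK1 encodes a kinase that marks damaged mitochondria for removal. Its FPKM was 13.3, 12.7 and 13.5 in the YO-A libraries, 23.9 and 18.7 in YO-F1 and YO-F3, 17.8 in YO-F2, and 13.3, 15.3 and 13.6 in the YO-P libraries. Every estrus library was above every other library for PINK1, unlike for SOD1, whose estrus and pregnancy libraries overlapped. Such separation was not particular to PINK1. Without YO-F2, estrus lay wholly above anestrus in 16 of the 130 genes tested and wholly above pregnancy in 26. The log2 fold changes of PINK1 from limma were 0.67 in YO-FvsA (adjusted p = 0.127) and 0.58 in YO-FvsP (adjusted p = 0.123).

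**Figure D4:**
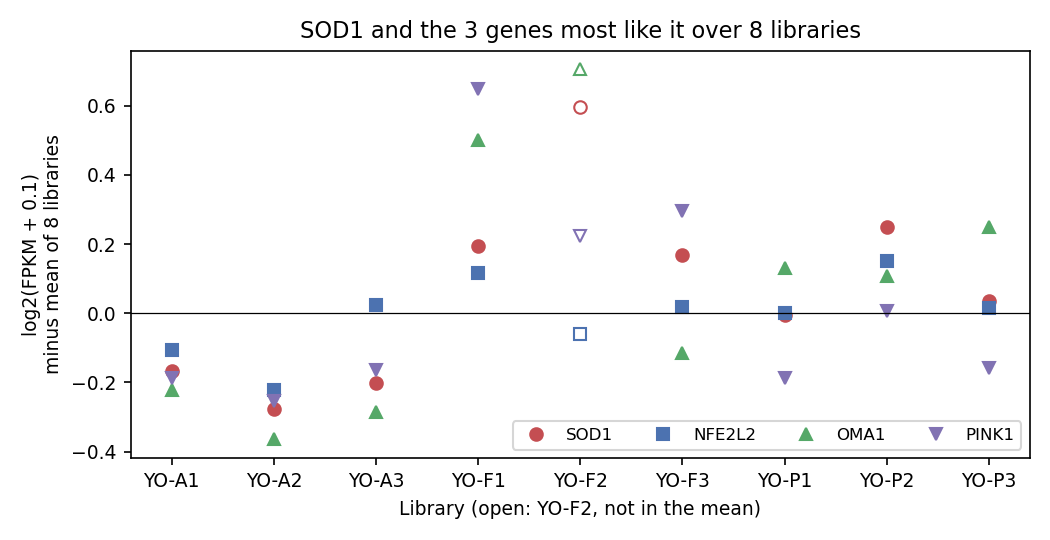
log2(FPKM + 0.1) of SOD1, NFE2L2, OMA1 and PINK1 in each library, less the mean of that gene over the 8 libraries without YO-F2 (y axis). SOD1, OMA1 and PINK1 are below 0 in the 3 anestrus libraries, and in YO-F2 (open symbols) SOD1 and OMA1 lie high while NFE2L2 does not.

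The deposited annotation names oxidative stress, peroxide or superoxide for 6 further genes of the table, a group drawn up by these words after the files had been seen. They were RBM11, APP, RCAN1, PINK1, ITGB2 and NFE2L2. In YO-FvsA, 5 of the 6 had a log2 fold change above 0 (median 0.39), beside 81 of all 130 genes (62.3%, median 0.07), and 0 of the 6 passed the adjusted threshold of limma while 1, PINK1, had an unadjusted p under 0.05. In YO-PvsA, 5 of 6 were above 0 (median 0.14), beside 61 of 130 (46.9%, median -0.03), and none had a p under 0.05 in limma, adjusted or not. RCAN1, a regulator of calcineurin, was the member below 0 in both. In YO-FvsP, 6 of 6 were above 0 (median 0.20), RCAN1 at 0.46, beside 75 of 130 (57.7%, median 0.07), and 1, PINK1, had an unadjusted p under 0.05 in limma while 0 passed the adjusted threshold.

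Next to SOD1 on chromosome 1, SCAF4 lies 2458 bp away on the opposite strand, and the annotated spans do not overlap. SCAF4, which encodes a factor of transcription termination, was chosen for its position after the files had been seen. Its mean was 14.9 FPKM for anestrus, 17.6 for estrus and 15.7 for pregnancy. In limma its log2 fold changes were 0.24 in YO-FvsA (adjusted p = 0.743) and 0.08 in YO-PvsA (adjusted p = 0.910), against 0.40 and 0.31 for SOD1.

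The m6A peak lists give 1 set of peaks per stage, with no separate replicates, so no test between stages was possible. The estrus list analysed here holds 18 peaks and ends at position 36965772 of chromosome 1, and the pregnancy list holds 282. Both run past SOD1, and neither holds a peak in it. The anestrus list analysed here ends at position 22449705, before SOD1, so m6A on SOD1 in anestrus was not analysed here. A gene with no listed peak may still carry m6A below the limit of the peak caller.

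Peak strands were inferred from the order of positions in each list. In pregnancy, 226 of the 238 peaks taken as plus-strand lay in plus-strand genes. On that reading, the nearest upstream peaks on the strand of SOD1 were in BACH1, 3289175 bp away in estrus and 3300854 bp in pregnancy. Downstream they were in EVA1C, 975228 and 975406 bp away. On the other strand, the pregnancy list has a peak in an exon of SCAF4 at chr1:35101080-35101619, 2521 bp from SOD1, with a fold enrichment of 4.26 over input. The estrus list analysed here holds plus-strand genes only, so this position was not compared.

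SOD1 had the highest mean FPKM, in estrus and in pregnancy, of the 30 plus-strand genes of the table that both lists reach. Absence of a listed peak was not particular to it. Of the 7 genes with a mean of at least 10 FPKM in both stages, 5, SOD1 among them, had no peak in either list. The other 2 had a peak in both.

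**Figure D5:**
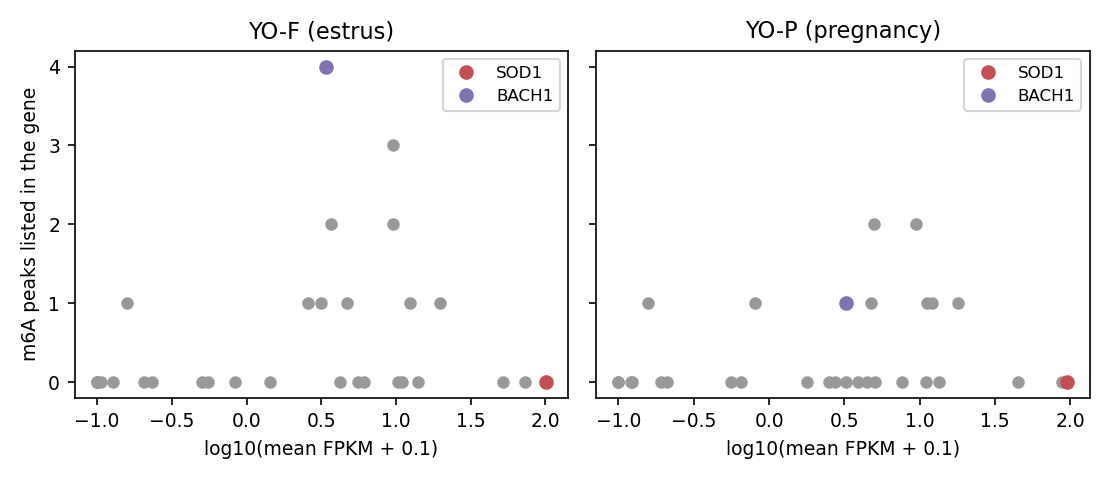
Number of listed m6A peaks (y axis) against log10(mean FPKM + 0.1) (x axis) of the 30 plus-strand genes of chromosome 1 that the estrus (left) and pregnancy (right) lists both reach. SOD1 is the point farthest right in both panels, with 0 peaks, and BACH1 has 4 peaks in estrus and 1 in pregnancy.

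BACH1, by contrast, carried listed peaks in both stages. This was not particular to it. Of the genes in reach with a mean of at least 1 FPKM, BACH1 included, 9 of 19 had a peak in estrus and 7 of 20 in pregnancy. In estrus there were 4, at chr1:31783463-31783671 in the 5′ UTR (fold enrichment 4.28), at chr1:31787417-31788456 in exon 2 (6.30), at chr1:31788515-31788634 in exon 2 (1.70) and at chr1:31799364-31799779 in exon 4 (6.54). In pregnancy there was 1, at chr1:31787595-31788100 in exon 2, with a fold enrichment of 8.47. It lies wholly inside the larger exon 2 peak of estrus and covers 48.7% of it (506 bp). The stages have 1 list each, so the difference between 4 peaks and 1 was not tested, and 2 of the 4 estrus peaks remained at a log10 false discovery rate of -2 or lower.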

How the data were processed

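Poly(A) RNA of 9 input libraries was aligned by the authors with HISAT2 (2.0.4) to the Bos grunniens genome (version 101) and quantified with StringTie; the deposited unit is FPKM. Counts were not used here, so the depth behind a value is unknown. Peak lists, annotated with ChIPseeker (1.18.0), hold the fold enrichment (a ratio of immunoprecipitated to input RNA) and log10 p and false discovery rate as scores, as deposited by the authors; the peak caller is not given in the sources used here. The stretch of each file analysed ends in an incomplete line, which was left out. Tables of the authors' peak comparisons between stages (fold changes and p-values) were not used.

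The study used a test for counts. Here limma (3.58.1, R 4.3.3) was fitted to log2(FPKM + 0.1) of 130 genes with a mean of at least 0.1 FPKM over 9 libraries, in 8 libraries and 3 stages, with moderation that follows a trend on mean expression. Fold changes on this scale are smaller than true ones for low genes. P-values were adjusted over these 130 genes, not over the transcriptome. The fit was checked on simulated data. Single genes were compared by exact permutation of libraries. Per the labels each library is an ovarian sample of slaughtered yaks, and p-values measure only the spread between these samples.

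Members and lists were chosen with earlier results of these data known. Genes named were all 10 members, any called pathway gene and the 3 genes most correlated with each member. BACH1, SCAF4, EVA1C, CNPPD1, USP16 and the annotated genes other than NFE2L2 and PINK1 fall outside this rule. Tried alternatives were other pseudocounts (1 and 0.01), minimum levels, scalings, YO-F2 included, fits of the 2 stages compared, no trend, a replicate block and leaving out each library.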

Additional observations from a re-analysis of the deposited data

How the results depend on the processing

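Some of the 54 alternative values for SOD1 repeat the reported value by construction, so they do not test its direction. These come from other minimum levels, no trend, fits of the 2 stages compared and leaving out a library of the stage not compared. In YO-PvsA, including YO-F2 and the replicate block also left the value unchanged. SOD1 kept its direction in 53 of the 54, the exception being -0.014 in YO-FvsP after quantile normalization. It stayed short of the adjusted threshold in all 54. Over leaving out each library, its log2 fold change ran from 0.36 to 0.42 (YO-FvsA), from 0.038 to 0.17 (YO-FvsP) and from 0.23 to 0.36 (YO-PvsA). The unadjusted p of SOD1 in YO-PvsA was also above 0.05 with YO-F2 (0.0550) and without the trend (0.0525).

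The number of genes called in YO-FvsA went from 0 to 1 with a pseudocount of 0.01, with a minimum of 1 FPKM, after median-ratio scaling and with only the 2 stages compared, and was 0 to 5 over leaving out each library, with 5 without estrus replicate 3. In YO-FvsP it was 1 with only the 2 stages compared and 0 to 1 over leaving out each library. By the study's standard the counts were 2, 3 and 3. The cause was not tested.

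In YO-FvsP, NFE2L2 turned to -0.030 with YO-F2, -0.070 after median-ratio scaling and -0.13 after quantile normalization, and ran from -0.037 without estrus replicate 1 to 0.061 without estrus replicate 3 over leaving out each library, also below 0 without pregnancy replicate 1 (-0.015) and without pregnancy replicate 3 (-0.0081). BACH1 turned to -0.52 with YO-F2, -0.021 after median-ratio scaling, and ran from -0.10 without estrus replicate 1 to 0.22 without estrus replicate 3, also below 0 without pregnancy replicate 2 (-0.023). With 50% of both peaks required to overlap, 0 BACH1 peaks were shared.

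The labels do not state that equal replicate numbers pair the samples. Over 7 pairs of equal number, r of the deviations from the stage means was -0.17 to 0.39, above 0.1 in 1. With 2 or 3 libraries per stage, these r values can neither show nor exclude a pairing. With the replicate block, 0 genes were called in each comparison, and the log2 fold changes of SOD1 were 0.42 (YO-FvsA), 0.11 (YO-FvsP) and 0.31 (YO-PvsA). Where leaving out a library left 1 estrus library, it was assumed to vary like the other groups. The stage means rest on 2 or 3 libraries.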
